A study of Mus musculus with 15 samples.

Results

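Expression of 10 genes of cerebellar neurons and Bergmann glia was examined in 15 libraries from mouse brain. The genes were Cbln1, Cbln3, Neurod1, Zic1, Zic2 and Etv1 of granule neurons, Pcp2, Car8 and Calb1 of Purkinje neurons, and Gdf10 of Bergmann glia, the radial astrocytes that enclose Purkinje cells. They were chosen by name as cell type genes, with earlier results of these data known. All 10 were found among the 27179 gene IDs of the count table and among the 17151 genes that passed the filter on low counts. All 10 also passed it with TG female 3, the library in which they were highest, left out. The samples were labelled as brain hemispheres of mice aged 12 months. The transgenic animals (TG) were homozygous for PLP-α-synuclein, human α-synuclein driven by the PLP promoter, which is active in oligodendrocytes, and the controls (WT) were non-transgenic animals of the C57Bl/6 background matched for age and sex. There were 4 WT male, 4 WT female, 4 TG female and 3 TG male libraries, and library preparation (Ribo-Zero Plus, which depletes ribosomal RNA and keeps strand) started from 250 ng each, though the labels also list the molecule as polyA RNA. No other treatment was given in the labels, and nothing in them assigns a library to a brain region. Each library was labelled as its own sample and nothing else in the labels ties it to an animal. The p-values here therefore set a difference between groups against the spread among libraries, which may in part be technical. In fits of all libraries without a class term, that spread includes the marker classes described below.

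The cerebellar cortex is built from few cell types. Granule neurons, the most numerous neurons of the brain, send parallel fibres to the dendrites of Purkinje neurons, which are the only output of the cortex. Cerebellin 1, the product of Cbln1, is released by granule neurons, binds presynaptic neurexins and organises the synapses onto Purkinje cells, and cerebellin 3 is made by granule neurons and is secreted in complexes with cerebellin 1.

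For 6 of the 10 genes and for Gabra6, the α6 subunit of the GABA-A receptor of granule neurons, RefSeq gave a promoter window on GRCm38.p6. The 250 bases before the transcription start are shown for Cbln3 and Pcp2, which were near the lower end of expression outside TG female 3, and for Zic1 and Neurod1, which were expressed in other libraries too. They are written 5′ to 3′ on the strand of the gene, with each CG dinucleotide in capitals, a motif that reads the same on both strands.
Cbln3, chr14:55884257-55884506, minus strand: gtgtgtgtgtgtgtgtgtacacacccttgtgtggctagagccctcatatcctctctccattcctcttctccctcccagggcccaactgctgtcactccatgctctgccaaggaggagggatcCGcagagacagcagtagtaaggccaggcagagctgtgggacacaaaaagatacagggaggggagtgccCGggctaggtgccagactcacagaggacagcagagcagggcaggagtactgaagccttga
Pcp2, chr8:3625548-3625797, minus strand: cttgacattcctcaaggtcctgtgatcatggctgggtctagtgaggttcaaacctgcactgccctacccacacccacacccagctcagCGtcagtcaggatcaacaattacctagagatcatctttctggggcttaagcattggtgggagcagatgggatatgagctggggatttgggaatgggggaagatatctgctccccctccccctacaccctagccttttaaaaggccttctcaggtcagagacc
Zic1, chr9:91365769-91366018, minus strand: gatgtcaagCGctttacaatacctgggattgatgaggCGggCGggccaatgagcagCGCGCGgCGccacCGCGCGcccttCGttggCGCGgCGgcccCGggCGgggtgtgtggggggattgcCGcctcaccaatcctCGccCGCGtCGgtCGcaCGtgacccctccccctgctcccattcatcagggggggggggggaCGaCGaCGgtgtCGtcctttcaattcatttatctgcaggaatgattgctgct
Neurod1, chr2:79456637-79456886, minus strand: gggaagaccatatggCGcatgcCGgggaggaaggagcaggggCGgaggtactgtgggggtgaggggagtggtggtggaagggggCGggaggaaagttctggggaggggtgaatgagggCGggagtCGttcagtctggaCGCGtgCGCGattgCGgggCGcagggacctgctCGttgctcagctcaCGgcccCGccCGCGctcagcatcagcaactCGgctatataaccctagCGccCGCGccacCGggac

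The windows differed in CG content. The Cbln3 window held 2 CG dinucleotides and the Pcp2 window 1, and 29.1% and 18.8% of the 32817 windows in the table held no more than these. The Gabra6 window also held 2. The Zic1 window held 27 and the Neurod1 window 22, numbers reached or passed by 8.57% and 14.8% of all windows, and that of Gdf10 held 35, reached or passed by 2.98%. The Etv1 window lay between with 9, against a median of 6 over all windows, 92.1% of which held at least 1. This is a description of 250 bases at 1 start per gene, and a relation of CG content to expression was not tested. Etv1, the least restricted of the 10 genes below, held fewer CG than Zic1 and Neurod1. Gdf10 held the most, with a highest class median outside TG female 3 of 12.6 CPM, below 21.5 CPM for Neurod1. Etv1 had 2 starts and Pcp2 had 4 in the table, and the window shown is the outermost.

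Library totals ran from 15170772 to 35850998 counts, and TG female 3 had 16495909. Values are given as CPM, the count as parts per 1000000 of the TMM-scaled library total. A count of 3 was worth between 0.0833 and 0.194 CPM, depending on the library. The libraries fell into 4 classes by marker genes that are not among the 10. TG female 3 alone had Gabra6 above 100 CPM, at 700 CPM, with no other library above 1.19 CPM. Hoxa5, a patterning gene of hindbrain and spinal cord, was at 69.3 CPM or more in 4 libraries, namely TG females 1 and 4, WT female 3 and WT male 3. In 3 libraries (WT male 4, WT female 2, TG male 4) Neurod6, a transcription factor of excitatory neurons of the forebrain, was at 131 CPM or more. In the other 7, Omp, a marker of olfactory sensory axons, was at 42.2 CPM or more. The classes are called cerebellum-marker, hindbrain-marker, cortex-marker and olfactory-marker below. They were formed from measured genes, so differences between them are described without a test. In bulk RNA fewer cells of a type and less RNA per cell cannot be told apart.

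TG female 3 held little of the markers of the other classes, with Hoxa5 at 1.97 CPM, Neurod6 at 9.48 CPM and Omp at 0.895 CPM. It did hold Ttr, the transthyretin gene of the choroid plexus, at 623 CPM against at most 3.53 CPM elsewhere. Kl, which encodes klotho and marks the choroid plexus on the same list, was at 90.3 CPM there against at most 11.7 CPM. Those are the only 2 choroid plexus markers on the list, their summed level was 714 CPM in TG female 3 and 2.95 to 15.3 CPM elsewhere, and their part in the values below was not tested.

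All 10 genes were highest in TG female 3, as were 18.5% of the genes tested. The level there was at least 4-fold above the highest of the other 14 libraries for 9 of the 10, against 0.828% of all genes tested, and at least 10-fold above it for 6, against 0.198%. Etv1 was the exception at 2.65-fold, past the 2-fold mark that 2.46% of all genes reached. The median of this ratio was 13.9 over the 10 genes and 0.717 over all genes tested. TG female 3 is 1 library, so these ratios have no replicate error, and the intervals given below are exact 95% limits for counting error alone. Among all genes tested Cbln3 had rank 2 by this ratio, Pcp2 rank 5 and Car8 rank 6. Rank 1 was that of Gabra6, by which the library was chosen.

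**Figure D1:**
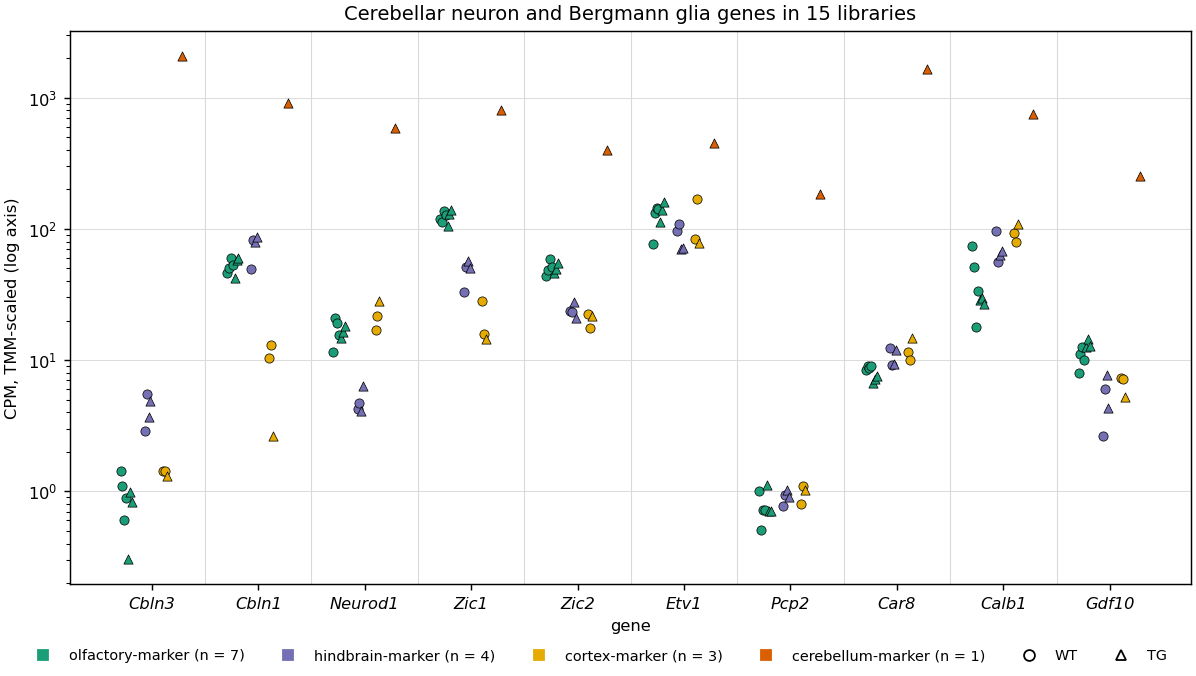
Level of each gene in the 15 libraries, in CPM on a log axis. Each point is 1 library, coloured by marker class and shaped by genotype. TG female 3 lies above the other 14 libraries for all 10 genes, by 375-fold for Cbln3 and by 2.65-fold for Etv1.

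Among the granule neuron genes, Cbln3 (chromosome 14, 55878920 to 55884256) was at 2061 CPM in TG female 3. It was at 0.304 to 1.43 CPM in the 7 olfactory-marker libraries, with a median of 0.886 CPM, at 1.32, 1.42 and 1.42 CPM in the cortex-marker libraries, and at 2.86, 5.50, 3.68 and 4.88 CPM in the hindbrain-marker libraries, in the order WT male 3, WT female 3, TG female 1 and TG female 4. The hindbrain-marker libraries thus lay above all others apart from TG female 3, without overlap, at a median of 0.208% of its level. The ratio of TG female 3 to the highest other library was 375 (interval 326 to 433).

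Gabra6, by which TG female 3 was chosen, is given beside Cbln3 as a description. It was at 1.19 CPM in WT female 3 and 0.681 CPM in TG female 4, the 2 libraries next highest for Cbln3, at 0.0409 CPM in WT male 3, and had no count in TG female 1, which held Cbln3 at 3.68 CPM. These Gabra6 levels rest on 43, 12, 1 and 0 counts, and the part of granule neuron RNA in the Cbln3 values was not tested.

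Cbln1 (chromosome 8, 87468853 to 87472592) differed from Cbln3 in its spread over regions. It was at 915 CPM in TG female 3 and at 49.3, 81.8, 78.8 and 86.0 CPM in the hindbrain-marker libraries, in the order given above. The olfactory-marker libraries ran from 42.0 to 60.3 CPM with a median of 52.6 CPM, and the cortex-marker libraries were at 10.4, 13.1 and 2.64 CPM (WT male 4, WT female 2, TG male 4). The cortex-marker libraries therefore lay below all others, while hindbrain-marker and olfactory-marker libraries overlapped because of WT male 3. TG female 3 was 10.6-fold above the highest other library (interval 10.1 to 11.2), and per kilobase of exon Cbln1 was there at 301 RPKM and Cbln3 at 424 RPKM, a ratio of 0.712. In the other 14 libraries this ratio ran from 3.20 in TG male 4 to 221 in TG female 2. The size of the ratio depends on the exon lengths used, which are the same for all libraries. Cbln1 overlaps Gm2694, a non-coding gene on the other strand that was at 30.1 CPM in TG female 3 and at most 2.23 CPM elsewhere. Since the strand setting of the counting was not given, reads of the overlap cannot be told apart.

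Neurod1 (chromosome 2, 79452637 to 79456636), a basic helix-loop-helix transcription factor needed for granule neuron survival, was at 590 CPM in TG female 3. The cortex-marker libraries were at 17.0, 21.5 and 27.98 CPM and the olfactory-marker libraries at 11.4 to 21.1 CPM with a median of 16.5 CPM. The hindbrain-marker libraries were lowest at 4.21, 4.69, 4.06 and 6.35 CPM. Cortex-marker and olfactory-marker libraries overlapped, and both lay wholly above the hindbrain-marker libraries, by 4.83-fold and 3.69-fold at the medians. The ratio of TG female 3 to the highest other library, TG male 4, was 21.1 (interval 19.3 to 23.2). Neurod1 overlaps Cerkl, a gene on the same strand that was at 7.99 CPM in TG female 3 and at most 1.09 CPM elsewhere, and also overlaps the non-coding Gm26755.

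Zic1 (chromosome 9, 91358058 to 91365768) and Zic2 (chromosome 14, 122475384 to 122480328) encode zinc-finger transcription factors that granule neurons keep into adulthood. Zic1 was at 808 CPM in TG female 3 and at 105 to 139 CPM in the olfactory-marker libraries, with a median of 127 CPM. It was at 32.9, 50.9, 56.8 and 50.2 CPM in the hindbrain-marker and at 28.1, 15.8 and 14.6 CPM in the cortex-marker libraries. The 4 classes did not overlap for Zic1, in the order cerebellum, olfactory, hindbrain and cortex markers. Zic1 overlaps Zic4 on the other strand, a relative at 48.3 CPM in TG female 3 and 3.10 to 15.4 CPM elsewhere, and reads of the overlap cannot be told apart if strand was not used.

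Zic2 followed the same order over its first steps. It was at 399 CPM in TG female 3 and at 43.6 to 59.3 CPM in the olfactory-marker libraries, with a median of 49.7 CPM. The hindbrain-marker libraries, at 23.6, 23.2, 27.6 and 20.8 CPM, and the cortex-marker libraries, at 22.4, 17.5 and 21.8 CPM, overlapped. TG female 3 exceeded the highest other library by 5.83-fold for Zic1 (interval 5.59 to 6.09) and by 6.72-fold for Zic2 (interval 6.29 to 7.20), in each case an olfactory-marker library. Per kilobase of exon the ratio of Zic1 to Zic2 was 1.02 in TG female 3, 1.15 to 1.38 in the olfactory-marker libraries, and 0.634, 0.457 and 0.338 in the cortex-marker libraries.

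Etv1 (chromosome 12, 38780082 to 38870483), an ETS transcription factor of maturing granule neurons and of layer 5 cortical neurons, was the least restricted of the 10. It was at 450 CPM in TG female 3 and at 170 CPM in WT female 2, a cortex-marker library, with the others of that class at 84.3 and 77.9 CPM. The olfactory-marker libraries ran from 77.3 to 160 CPM with a median of 140 CPM, and the hindbrain-marker libraries were at 96.6, 109, 70.1 and 70.9 CPM. All 3 of these classes overlapped each other for Etv1.

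The Purkinje neuron genes Pcp2 and Car8 were at low and even levels outside TG female 3. Pcp2 (chromosome 8, 3623369 to 3625547), a modulator of G protein signalling also known as L7, was at 186 CPM in TG female 3 and between 0.506 and 1.12 CPM in all 14 other libraries. Its 3 other class medians were 0.720, 0.926 and 1.03 CPM for olfactory, hindbrain and cortex markers, and all overlapped. The ratio to the highest other library was 166 (interval 110 to 266), with 22 counts in that library. Pcp2 overlaps Pet100, a gene of mitochondrial complex assembly on the other strand, which was at 31.8 CPM in TG female 3 and 5.10 to 7.49 CPM elsewhere, with the same limit on strand.

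Car8 (chromosome 4, 8141493 to 8239041) encodes a carbonic anhydrase-related protein that binds the inositol trisphosphate receptor of Purkinje cells. It was at 1646 CPM in TG female 3, at 12.3, 9.16, 9.35 and 11.9 CPM in the hindbrain-marker, at 11.5, 10.1 and 14.8 CPM in the cortex-marker and at 6.74 to 9.02 CPM in the olfactory-marker libraries. The olfactory-marker libraries were lowest, without overlap but by a small step, with medians 1.27-fold and 1.38-fold below those of the hindbrain-marker and cortex-marker libraries. Car8 also overlaps the pseudogene Gm11799 and the miRNA gene Gm25355. TG female 3 was 111-fold above the highest other library (interval 98.1 to 126).

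Calb1 (chromosome 4, 15881264 to 15906709), the calcium buffer calbindin, is known from Purkinje neurons and from neurons of many other regions. It was at 747 CPM in TG female 3, at 93.5, 80.1 and 109 CPM in the cortex-marker and at 96.3, 55.7, 63.7 and 67.3 CPM in the hindbrain-marker libraries. The olfactory-marker libraries ran from 17.9 to 74.5 CPM with a median of 29.9 CPM, and lay below the cortex-marker libraries without overlap. With library totals in place of TMM these classes overlapped, at up to 77.8 CPM in the olfactory-marker and from 73.5 CPM in the cortex-marker libraries. The highest value in the olfactory-marker class, 74.5 CPM, was that of WT male 1, which was also the lowest of that class for Etv1, Neurod1 and Gdf10 and held the most Drd1, a receptor of striatal neurons, of all libraries at 88.8 CPM. The part of striatal neurons in these values was not tested. TG female 3 was 6.84-fold above the highest other library (interval 6.52 to 7.18).

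Gdf10 (chromosome 14, 33923587 to 33936514), a bone morphogenetic protein relative made by Bergmann glia, was at 251 CPM in TG female 3. It was at 7.93 to 14.6 CPM in the olfactory-marker libraries, with a median of 12.6 CPM, at 7.34, 7.16 and 5.27 CPM in the cortex-marker and at 2.66, 6.03, 7.74 and 4.31 CPM in the hindbrain-marker libraries. The olfactory-marker libraries lay above both other classes, which overlapped each other. The margin was narrow, since the lowest olfactory-marker library was WT male 1 at 7.93 CPM and the highest of the rest was TG female 1 at 7.74 CPM. TG female 3 was 17.2-fold above the highest other library (interval 15.2 to 19.5).

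Set as a share of the level in TG female 3, the 10 genes spanned a wide range outside it. The median of Cbln3 in the highest of the other classes was 0.208%, that of Pcp2 0.556% and that of Car8 0.701%. Neurod1 and Gdf10 reached 3.65% (cortex markers) and 5.0% (olfactory markers), and Cbln1 8.77% (hindbrain markers). Zic2, Calb1 and Zic1 reached 12.5%, 12.5% and 15.7%, with olfactory, cortex and olfactory markers in this order, and Etv1 reached 31.1% with olfactory markers.

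**Figure D2:**
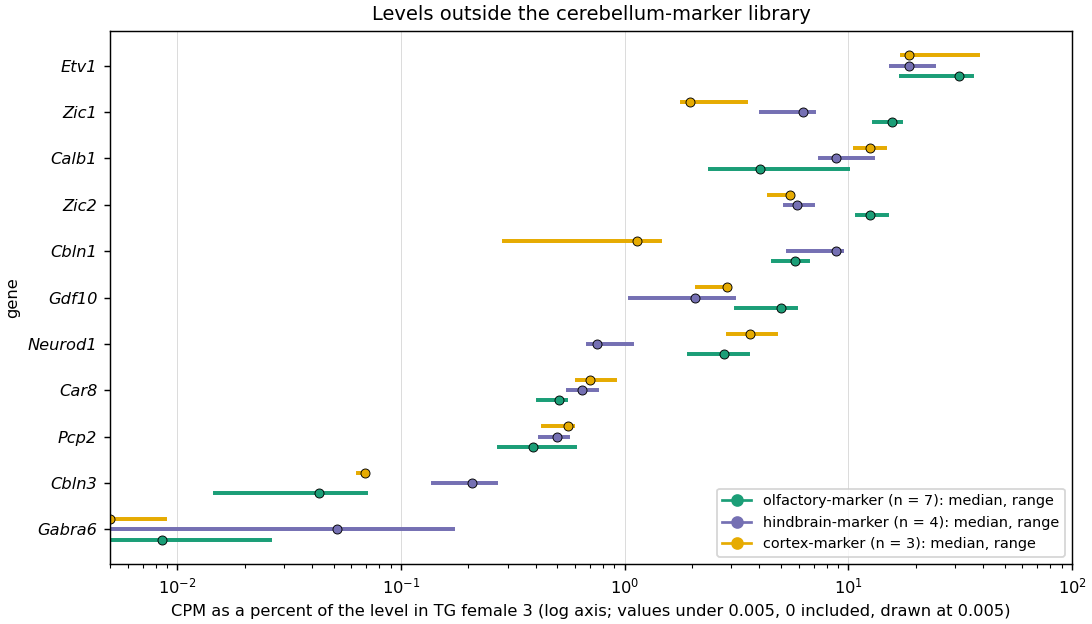
Level in the olfactory-marker, hindbrain-marker and cortex-marker libraries as a percent of the level in TG female 3, on a log axis. Points are class medians, bars run from the lowest to the highest library, and Gabra6, by which the library was chosen, is drawn for reference. Etv1, Zic1, Calb1 and Zic2 reach 12.5% or more, while Cbln3, Pcp2 and Car8 stay under 1 percent.

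By rank among the genes tested within a library, on the per-kilobase scale, several of the 10 were also high outside the cerebellum-marker library. Cbln1 lay at the 89.0th percentile at the median of the hindbrain-marker libraries, Zic1 at the 86.4th and Zic2 at the 81.9th in the olfactory-marker libraries, and Calb1 at the 82.8th in the cortex-marker libraries. Etv1 was at the 70.8th and Neurod1 at the 62.9th percentile in their highest class. Car8, Gdf10, Cbln3 and Pcp2 stayed at the 41.0th, 34.9th, 18.9th and 16.6th. In TG female 3 the 10 genes lay between the 91.7th percentile, for Etv1, and the 99.9th, for Cbln3 and Car8.

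Differences among the other classes were common over all genes, and the counts over the 10 genes are not read as particular to them. Hindbrain-marker libraries lay wholly above olfactory-marker libraries for 2 genes (Cbln3, Car8) and wholly below for 4 (Zic1, Zic2, Neurod1, Gdf10), against 24.7% and 25.7% of all genes tested. Cortex-marker libraries lay wholly above olfactory-marker libraries for 2 (Calb1, Car8) and wholly below for 4 (Cbln1, Zic1, Zic2, Gdf10), against 19.9% and 17.9%. Hindbrain-marker libraries lay wholly above cortex-marker libraries for 3 (Cbln1, Cbln3, Zic1) and wholly below for Neurod1 alone, against 29.8% and 29.3%.

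Over the 14 libraries other than TG female 3, the genes did not vary as 1 group. Zic1 and Zic2 had the highest correlation among the 45 combinations, with Pearson's r of 0.92 for log2 CPM, followed by Zic2 and Gdf10 at 0.80 and Calb1 and Car8 at 0.78. The lowest was that of Calb1 and Zic2 at -0.84, and Calb1 and Zic1 were at -0.81. These coefficients describe 14 libraries that fall into 3 classes, which all genes share.

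**Figure D3:**
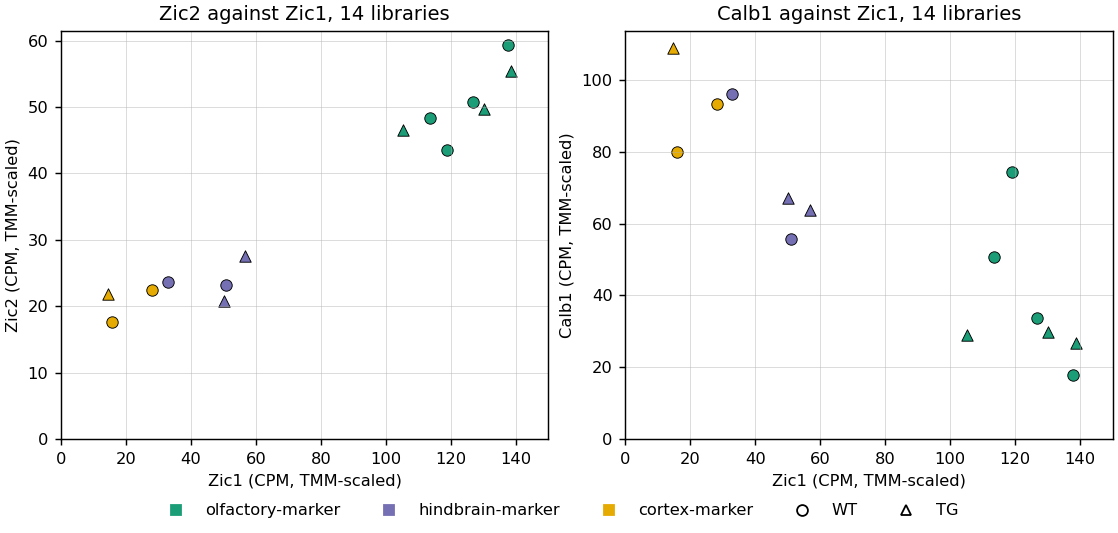
Zic2 and Calb1 against Zic1 in the 14 libraries other than TG female 3, in CPM on linear axes. Each point is 1 library, coloured by marker class and shaped by genotype. The 7 olfactory-marker libraries hold the highest Zic1 and Zic2, and the 3 cortex-marker libraries hold the lowest Zic1 with Calb1 at 80.1 CPM or more.

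Other genes of the same cell types were read in the same way. Their lists were written down for this purpose with earlier results of these data known, so the shares are a description. Of 14 further granule neuron genes, leaving out Gabra6 by which TG female 3 was chosen, 12 were highest in that library and 6 were at least 4-fold above every other library, against 18.5% and 0.828% of all genes tested, namely Fat2, Barhl1, Grin2c, Chn2, Zic5 and Cdh15. Fat2, a large cadherin of parallel fibres, was at 957 CPM there against at most 4.14 CPM elsewhere, and Cdh15, the M-cadherin, at 54.3 CPM against at most 4.90 CPM. Slc17a7, the vesicular glutamate transporter shared with cortical neurons, was lowest by this measure, at 447 CPM against 1852 CPM in WT male 4. Of 15 further Purkinje neuron genes, 14 were highest in TG female 3 and 7 passed 4-fold, against the same shares of all genes, among them Slc1a6, Ppp1r17, Rgs8, Homer3 and Lhx1. Ppp1r17, a phosphatase inhibitor, was at 242 CPM against at most 5.11 CPM, Homer3, a postsynaptic scaffold, at 196 CPM against at most 11.3 CPM, and Rgs8, a regulator of G protein signalling, at 1958 CPM against at most 177 CPM.

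Of 10 genes of Bergmann glia and astrocytes, 6 were highest in TG female 3, against 18.5% of all genes tested, and 0 passed 4-fold, against 0.828%. Whether the lists differ from each other was not tested. Timp4, a metalloproteinase inhibitor, was nearest at 108 CPM against at most 49.6 CPM, followed by Gria4, a glutamate receptor subunit, at 421 CPM against 247 CPM and Gpr37l1, an astrocyte receptor, at 666 CPM against 448 CPM. Fabp7, a fatty acid binding protein of radial glia, was lowest by this measure, at 4.17 CPM against 95.4 CPM in WT female 1. The list is shared with astrocytes of all regions, and its summed level was 5493 CPM in TG female 3, 3797 to 4162 CPM with hindbrain markers and 1906 to 2611 CPM in the other classes.

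Of 9 cerebellar interneuron genes tested, 4 were highest in TG female 3 and 1 passed 4-fold, against 18.5% and 0.828% of all genes tested. Tfap2b, a transcription factor of inhibitory lineages, was at 71.7 CPM against at most 12.9 CPM, Tfap2a, its relative, at 8.65 CPM against at most 2.19 CPM, and Kit, a receptor of molecular layer interneurons, at 179 CPM against at most 53.3 CPM. Slc6a5, the glycine transporter, was lowest at 9.48 CPM against 103 CPM in TG female 4. Of 5 genes tested for unipolar brush cells and the cerebellar nuclei, 2 were highest in TG female 3 and 1 passed 4-fold, against the same shares, the latter being Otx2 at 20.5 CPM against at most 2.15 CPM. Slc17a6, the vesicular glutamate transporter of subcortical neurons, was at 50.5 CPM against 291 CPM in WT male 3. Eomes, which marks unipolar brush cells and also mitral cells of the olfactory bulb, was at 27.6 CPM against 157 CPM in WT female 1, and Tbr1, of cortex and cerebellar nuclei, was lowest at 0.895 CPM against 252 CPM in WT female 2.

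Partners and relatives of the cerebellins formed a further list of 7 genes. The neurexins, which bind cerebellins from the presynaptic side, lay within the range of the other libraries, with Nrxn2 at 351 CPM and Nrxn3 at 357 CPM in TG female 3. Cbln2 and Cbln4, the other members of the family, were below every other library there, as was Grid1, a glutamate receptor gene. Cbln2 was at 2.56 CPM against 30.3 to 94.6 CPM in the other 14, Cbln4 at 3.34 CPM against 11.7 to 44.8 CPM, and Grid1 at 9.30 CPM against 13.1 to 27.4 CPM. In the same library Cbln1 and Cbln3 were thus highest and Cbln2 and Cbln4 lowest. The share of all genes tested that were lowest there was not counted, so this is a description and is not read as particular to the family.

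Between TG and WT, none of the 10 genes passed the threshold. All 10 had a positive log2 difference in the fit of all 15 libraries, with a median of 1.65 against -0.000694 over all genes tested, of which 49.8% were positive. By the quasi-likelihood test of edgeR with Benjamini-Hochberg adjustment 0 of 10 were called, against 0.111% of all genes, and 2 of 10 (Pcp2 and Gdf10) had an unadjusted p under 0.05, against 1.83% of all genes. Without the sex covariate 0 of 10 were called by edgeR, against 0.111% of all genes, and 6 of 10 had an unadjusted p under 0.05, against 2.57%, with Cbln3 at 7.24 ± 1.96 on the log2 scale. DESeq2 gave no p for 7 of the 10 genes, and of the 3 with one (Zic1, Zic2 and Etv1) 0 were called and 0 had an unadjusted p under 0.05. Of the cell type genes on the lists above, Gabra6 included, 0 were called. In the fit of all 15 libraries the median log2 difference was 0.894 for the granule list with Gabra6 and 0.892 for the Purkinje list. It was 0.0714 for the Bergmann glia and astrocyte list and -0.153 for the interneuron list. For the unipolar brush and cerebellar nuclei list it was -0.0346, and for the cerebellin partner list -0.00372. List medians were not taken without TG female 3.

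The differences of the 10 genes were smaller without TG female 3. Pcp2 had a lowest, median and highest level of 0.506, 0.790 and 1.09 CPM in the 8 WT libraries, and of 0.713, 1.03 and 186 CPM in the 7 TG libraries. Its log2 difference was 3.60 ± 1.66 (SE), with a Benjamini-Hochberg adjusted p of 0.9999 (edgeR, quasi-likelihood test), and without TG female 3 it was 0.15 ± 0.20. Cbln3, with the largest difference, was at 0.604, 1.42 and 5.50 CPM in WT and at 0.304, 1.32 and 2061 CPM in TG, a difference of 5.17 ± 3.05 that was -0.09 ± 0.60 without that library. Gdf10 was at 2.66, 7.63 and 12.6 CPM in WT and at 4.31, 12.6 and 251 CPM in TG, and its difference of 1.92 ± 0.87 was 0.24 ± 0.35 without it. TG and WT ranges overlapped for all 3. Without TG female 3 the median over the 10 genes was 0.00163 and 5 were positive, with differences from -0.17 for Etv1 to 0.24 for Gdf10, and 0 were called by edgeR against 0.123% of all genes, with 0 at an unadjusted p under 0.05 against 1.47%.

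**Figure D4:**
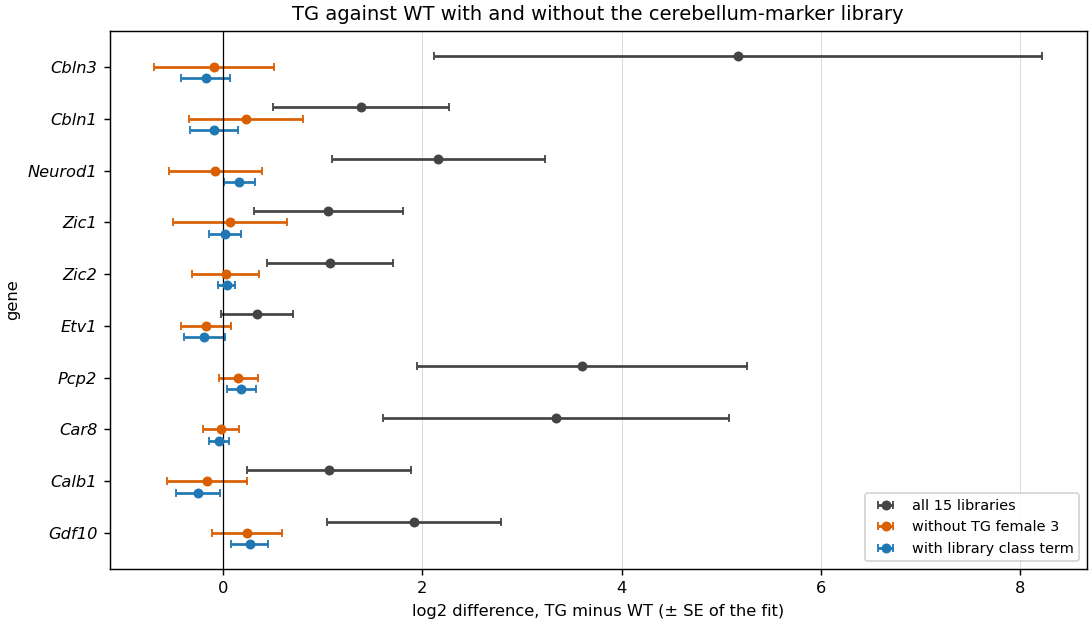
Log2 difference between TG and WT for each gene, with bars of ± 1 SE of the edgeR fit, for all 15 libraries, without TG female 3, and with a term for the 4 library classes. The differences of 0.34 to 5.17 over all libraries lie between -0.25 and 0.27 in the other fits.

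With a term for the library classes, in which TG female 3 forms a class of its own and adds nothing to the genotype difference, 0 of 10 were called by edgeR, against 0.496% of all genes, and 0 had an unadjusted p under 0.05, against 8.4%. The differences ran from -0.25 ± 0.22 for Calb1 to 0.27 ± 0.18 for Gdf10. Within the 7 olfactory-marker libraries, 3 TG and 4 WT, 0 of 10 were called by edgeR, against 0.267% of all genes, and 1 of 10 had an unadjusted p under 0.05, against 6.09%. This was Car8, at 6.74, 7.24 and 7.57 CPM in TG female 2 and TG males 1 and 3 and at 8.34, 9.02, 8.63 and 8.97 CPM in WT males 1 and 2 and WT females 1 and 4. The TG libraries lay below the WT libraries without overlap for Car8 alone of the 10 genes, against 2.93% of all genes tested. Its log2 difference was -0.30 ± 0.10 with a Benjamini-Hochberg adjusted p of 0.726 (edgeR, quasi-likelihood test). Gdf10 ran the other way there at 0.37 ± 0.16, with TG at 12.6, 14.6 and 12.9 CPM and WT at 7.93, 11.2, 12.6 and 9.96 CPM, a Benjamini-Hochberg adjusted p of 0.787 in that test and groups that met at 12.6 CPM. It alone of the 10 genes had all TG above all WT libraries there, by less than that rounding, against 3.84% of all genes tested. In the hindbrain-marker class, with 2 libraries of each genotype, Car8 was at 9.35 and 11.9 CPM in TG and 12.3 and 9.16 CPM in WT, which overlapped.

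Neither sex nor the interaction of genotype with sex gave a call among the 10 genes. For sex 0 of 10 were called by the quasi-likelihood test of edgeR and 0 had an unadjusted p under 0.05, against 0.0408% and 2.19% of all genes. All 10 log2 differences, male minus female, were negative, with a median of -1.36 against -0.00637 over all genes tested. Without TG female 3, a female library, 6 were positive and the median was 0.0440. For the interaction 0 of 10 were called, against 0% of all genes. There, Cbln3, Pcp2 and Car8 had an unadjusted p under 0.05, against 4.07% of all genes, and the Benjamini-Hochberg adjusted p was 0.724 for each (edgeR, quasi-likelihood test). Without TG female 3, for sex 0 were called against 0.0409% and 0 had an unadjusted p under 0.05 against 1.94%, and for the interaction 0 were called and Etv1 alone had an unadjusted p under 0.05, against 4.46%. With the class term 0 were called for sex, against 0.07%, and for the interaction, against 0%. Calb1 alone had an unadjusted p under 0.05 for sex, against 5.52%, and Etv1 alone for the interaction, against 12.5%.

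The genes whose pattern was most like that of each of the 10 were named by Pearson's r of log2(CPM + 0.5) among 14091 genes whose mean reached 1 CPM. The 15 libraries include TG female 3, which lies far from the rest for these genes, and the 14 others fall into 3 classes. The libraries are shared by all genes and the best of many is taken, so no p is given. Over 15 libraries, Cbln3 was nearest to Smarcd2 (0.986), Slc1a6 (0.979) and Rmdn3 (0.975), of which Slc1a6 is the glutamate transporter of Purkinje cells. Pcp2 was nearest to Il20rb (0.993), Il16 (0.992) and Abhd16a (0.987), and Il20rb, a cytokine receptor subunit, ran from 0.414 to 100.4 CPM. Among the 3 nearest to Car8 were Icmt (0.990) and Mybpc3 (0.988). Icmt, the enzyme that methylates prenylated proteins, reached 873 CPM. Zic1 was nearest to Myt1 (0.975), Barhl2 (0.973) and Rtel1 (0.972), where Barhl2 is a homeobox gene. Zic2 was nearest to Rif1 (0.984), Zfp385c (0.982) and Ppfia1 (0.977). For Cbln1 the nearest were Zfp687 (0.966), Trim67 (0.962) and Pde3a (0.956). For Neurod1 they were Iffo2 (0.984), Car15 (0.981) and Ccdc120 (0.978), and for Gdf10 Tle2 (0.987), Saal1 (0.967) and Slc16a11 (0.966). For Calb1 they were Ptchd1 (0.954), Mfhas1 (0.952) and Trim3 (0.948). For Etv1 they were Itpkc (0.962), Dele1 (0.939) and Rad21 (0.927), with Itpkc, a kinase of inositol trisphosphate, between 11.1 and 22.5 CPM.

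Over the 14 libraries without TG female 3, Itpkc was again among the nearest to Etv1. Zic1 was nearest to Th (0.980), Shisa8 (0.979) and Sall3 (0.977), and Th, the tyrosine hydroxylase that also marks dopamine neurons of the olfactory bulb, ran from 0.631 to 126 CPM. Zic2 was nearest to Cldn19 (0.987), Zfp446 (0.986) and Lbhd2 (0.984). Among the 3 nearest to Gdf10 were Cfap69 (0.957) and Atad5 (0.947). Calb1 was nearest to Gng2 (0.961), Prkacb (0.961) and Tomm20 (0.960), which include Gng2, a G protein subunit, and Prkacb, a catalytic subunit of protein kinase A. Neurod1 was nearest to Csrnp2 (0.979), Kcnh7 (0.979) and Fam155a (0.978). Cbln1 was nearest to Dlg5 (0.967), Kcne1l (0.964) and Arhgef40 (0.962). Dlg5 is a scaffold protein and Kcne1l a potassium channel subunit. Cbln3 was nearest to Mybl1 (0.959), Atp8a2 (0.958) and Atp13a4 (0.956), and Atp8a2 is a lipid flippase. Car8 was nearest to Pgam1 (0.917), Cmpk1 (0.912) and Polr2g (0.909). Etv1 was nearest to Oip5os1 (0.921), Itpkc (0.906) and Zfp85 (0.893). The lowest coefficients were those of Pcp2, with Fam122a (0.822), Zfp119b (0.812) and B3gnt2 (0.789), where 14 libraries spanned only 0.506 to 1.12 CPM.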

How the data were processed

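RNA was measured in 15 brain hemisphere libraries, read as pairs of 100 bp. The deposited values are raw counts of reads per NCBI gene ID. The submitters' processing notes name STAR 2.7.5b, featureCounts, Subread and the build GRCm38. Strand use, pair counting and multiple matches were not given in the sources used here. Columns were matched to samples by the library number in the titles. Symbols and positions came from RefSeq on GRCm38.p6 for 25275 of 27179 IDs, with GENCODE naming others, to 25293 in all. Exon lengths for RPKM came from GENCODE M21, as the union of all exons under a gene name. Per-kilobase ratios and percentiles between genes depend on that choice. Promoter windows are from RefSeq.

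The tests used edgeR 4.0.16 under R 4.3.3 on the raw counts, with filterByExpr over the 4 genotype-by-sex groups, TMM scaling, robust quasi-likelihood fits and Benjamini-Hochberg adjustment over all genes tested, at 0.05. The fit held genotype and sex, and the interaction was a contrast of the 4 group means. SE is the size of the log2 difference divided by the root of F. DESeq2 1.42.0, other scalings, no filter, no sex covariate, the replicate number as a block, a class term and left-out libraries were alternatives. On simulated counts for 17151 genes in the design of TG versus WT, 86% of 4-fold and 50% of 2-fold changes were recovered, with 8 false calls. The changed genes were drawn at random above a minimum count, and the simulation held no library classes. Within groups, each library differed from the others by more than counting noise (chi-square per gene of 6.34 or more).

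The 10 genes, the 6 cell type lists, the class markers with their minimums (Gabra6 and Neurod6 100 CPM, Hoxa5 and Omp 10 CPM) and the rules were chosen with earlier results of these data known. The lists are granule neuron, Purkinje neuron, Bergmann glia and astrocyte, cerebellar interneuron, unipolar brush and cerebellar nuclei, and cerebellin partner genes. Named are the 10 genes, the class markers, the 3 genes with the highest correlation per gene, and of each list the 3 genes with the largest ratio of TG female 3 to the highest other library, the 1 with the smallest and those called. Some genes that this rule names are not reported here. Ratios use at least 3 counts for the highest other library. Eomes, Slc17a6, Cdh15, Grid1, Cbln2, Cbln4, Nrxn2, Ttr, Kl, Drd1 and the overlapping genes were chosen after their values were seen. Of these, Cdh15, Cbln2 and Nrxn2 also met the rule for the lists. Barhl1, Grin2c, Chn2, Zic5, Slc1a6 and Lhx1 were named from their lists because they passed 4-fold.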

Additional observations from a re-analysis of the deposited data

Results flagged for a closer look

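In the group of 4 TG female libraries, TG female 3 stood apart from the other 3 for all 10 genes, by a gap to the next library that exceeded Dixon's 95% critical value for 4 samples. The levels in TG female 3 were 915 CPM for Cbln1, 2061 CPM for Cbln3, 186 CPM for Pcp2, 747 CPM for Calb1, 808 CPM for Zic1, 399 CPM for Zic2, 590 CPM for Neurod1, 251 CPM for Gdf10, 450 CPM for Etv1 and 1646 CPM for Car8. Outside that library, Cbln3 at 5.50 CPM in WT female 3, a hindbrain-marker library, stood above the other WT females. Cbln1 at 10.4 CPM in WT male 4, a cortex-marker library, stood below the other WT males. Among 4 samples of 1 kind, chance gives such a gap in about 1 in 20 groups, and 30 combinations of group and gene were examined. That rate does not hold here, since the groups mix marker classes and TG female 3 was chosen by Gabra6, so the gaps are a description. The 10 gaps in TG female 3 come from 1 library and are not independent of each other.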

How the results depend on the processing

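No edgeR fit called any of the 10 genes for genotype, sex or their interaction, so the count was 0 in each. DESeq2 gave no p for 7 of the 10 and is not counted here. The number of genes called over the whole table moved from 19 to 40 with DESeq2, 85 with the class term, 46 in the olfactory-marker libraries alone, 7 without the hindbrain-marker libraries and TG female 3, and 14 to 21 with each library left out in turn. Differences between TG and WT that changed sign, all past no threshold, were as follows. Without TG female 3 they were -0.09 for Cbln3, -0.16 for Calb1, -0.08 for Neurod1, -0.17 for Etv1 and -0.02 for Car8. With the class term they were -0.09 for Cbln1, -0.17 for Cbln3, -0.25 for Calb1, -0.19 for Etv1 and -0.04 for Car8. In the olfactory-marker libraries alone they were -0.73 for Cbln3, -0.62 for Calb1, -0.01 for Zic1, -0.05 for Neurod1 and -0.30 for Car8. Without the hindbrain-marker libraries and TG female 3 they were -0.69 for Cbln3, -0.47 for Calb1 and -0.12 for Car8. Over fits with 1 library left out, the differences ran from -0.09 to 6.26 for Cbln3, -0.16 to 1.43 for Calb1, -0.08 to 2.46 for Neurod1, -0.17 to 0.48 for Etv1 and -0.02 to 4.09 for Car8, the lowest being the fit without TG female 3 each time.

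With the replicate number as a block, 16 genes were called, 0 of them among the 10, whose median difference was 0.77 in place of 1.65, with Cbln3 at 1.87. Without the sex covariate the median was 2.21 and 6 of the 10 in place of 2 had an unadjusted p under 0.05. Libraries with the same number had deviations correlated from -0.629 to 0.917, so the numbers were not taken to pair them. The count of 9 genes at least 4-fold above every other library was 10 at 2-fold and 6 at 10-fold, and was 9 with either other scaling. With library totals in place of TMM, 1 gene in place of 2 had cortex-marker libraries wholly above olfactory-marker libraries, since Calb1 then overlapped, and hindbrain-marker libraries lay wholly above cortex-marker libraries for 4 genes in place of 3, Zic2 being added. The ratio of TG female 3 to the highest other library was then 7.75 for Calb1, 23.9 for Neurod1 and 2.81 for Etv1. TG female 3 is 1 library and no setting gives it a replicate. Of a simulated set of 1.5-fold changes between TG and WT, in genes drawn at random and without library classes, 6% were recovered. Recovery in that simulation does not carry over to the 10 genes. In the fit of all 15 libraries, Cbln3 at 5.17 ± 3.05 and Pcp2 at 3.60 ± 1.66 were not called. Genotype differences of these genes, small or large, could therefore be missed.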
